A study of Mus musculus with 15 samples.

Results

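Integrins are the receptors by which cells hold on to the extracellular matrix and to other cells, and the data described here are the transcript levels of their genes in mouse mesenchymal stromal cells, in hepatocytes and in cells moved between these states in culture. The genes were all those of the value table whose symbol starts with Itga or Itgb, with probe sets that carry 1 symbol only and with the probe set of the highest mean over the 15 arrays standing for each gene. This gave 29 of the 18193 genes tested. Of these, 25 encode integrin subunits and 4 share only the prefix (Itgb1bp1, Itgb1bp2, Itgb3bp and Itgbl1). Itga11 and Itgad were not used here.

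The study followed whether a hepatocyte-directed change of stromal cells can be undone, and measured total RNA of 5 groups on Affymetrix arrays, with 3 arrays a group. The dHD28 cells were HD28 cells put back into stromal cell medium. The HD28 cells were mesenchymal stromal cells given 20 ng/ml HGF, 10 ng/ml bFGF and 0.61 g/L nicotinamide for 7 days, and then 20 ng/ml oncostatin M, 1 µmol/L dexamethasone and an insulin, transferrin and selenium supplement. The MLC cells were primary hepatocytes moved to stromal cell medium with TGF-β1 at 10, then 5, then 1 ng/ml up to days 7, 14 and 28, and afterwards without it. The Hepatocyte group was primary mouse hepatocytes in DMEM/F12 with 10% serum. The MSC group was mesenchymal stromal cells in low-glucose DMEM with 10% serum. The labels give no strain, sex or age and do not say whether the replicates are separate cultures or animals, so the p-values measure the spread between these arrays, which may be technical. Values are log2 expression on the deposited RMA scale, array medians lay between 4.84 and 4.95, and the number of arrays limits the precision.

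An integrin is a pair of 1 alpha and 1 beta chain that spans the membrane, binds a ligand outside the cell and is tied to actin inside it by talin, kindlin and other adaptors. The alpha chain largely sets the ligand: alpha 1, 2 and 10 bind collagens, alpha 3, 6 and 7 bind laminins, and alpha 5, 8, V and IIb bind ligands with an RGD motif such as fibronectin, vitronectin and nephronectin. Most of these pair with beta 1, while alpha V also pairs with beta 3, 5, 6 and 8, and the alpha V pairs with beta 6 and beta 8 are known activators of latent TGF-β. In liver, hepatocytes are known for alpha 1 beta 1 and alpha 5 beta 1, whereas stromal and activated stellate cells carry a wider set.

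The promoters of the genes that changed between dHD28 and HD28 cells are shown here because the study concerns DNA methyltransferases, which act on CpG dinucleotides. Methylation itself was not analysed here. RefSeq (GRCm38.p6) gave windows of 300 bases, from 250 before to 50 after the start, for 21 of the 29 genes (23 windows). Of the 5 genes that changed between dHD28 and HD28 cells, Itga6 had no entry. The other windows lie at chr14:123659890-123660189 (plus strand) for Itgbl1, chr3:96645334-96645633 (plus) for Itga10, chr2:12301895-12302194 (minus) for Itga8 and chr16:33829415-33829714 (plus) for Itgb5, each written 5′ to 3′ along the gene with CpG dinucleotides in capitals.
Itgbl1: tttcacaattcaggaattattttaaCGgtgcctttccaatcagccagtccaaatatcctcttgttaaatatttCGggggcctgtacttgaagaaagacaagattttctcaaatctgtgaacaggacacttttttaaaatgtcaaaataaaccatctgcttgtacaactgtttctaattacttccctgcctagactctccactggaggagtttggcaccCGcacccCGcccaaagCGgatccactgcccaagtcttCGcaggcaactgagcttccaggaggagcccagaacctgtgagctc
Itga10: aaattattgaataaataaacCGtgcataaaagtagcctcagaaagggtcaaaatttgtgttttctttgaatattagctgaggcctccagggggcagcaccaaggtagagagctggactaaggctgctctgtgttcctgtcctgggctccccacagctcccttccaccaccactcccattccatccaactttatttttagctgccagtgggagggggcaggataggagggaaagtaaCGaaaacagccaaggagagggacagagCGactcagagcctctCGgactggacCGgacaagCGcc
Itga8: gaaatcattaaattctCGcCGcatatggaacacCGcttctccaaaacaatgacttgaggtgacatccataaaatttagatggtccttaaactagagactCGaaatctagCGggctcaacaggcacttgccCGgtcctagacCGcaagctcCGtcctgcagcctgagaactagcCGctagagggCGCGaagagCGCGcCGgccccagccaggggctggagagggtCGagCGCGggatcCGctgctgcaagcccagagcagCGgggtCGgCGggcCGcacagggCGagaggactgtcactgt
Itgb5: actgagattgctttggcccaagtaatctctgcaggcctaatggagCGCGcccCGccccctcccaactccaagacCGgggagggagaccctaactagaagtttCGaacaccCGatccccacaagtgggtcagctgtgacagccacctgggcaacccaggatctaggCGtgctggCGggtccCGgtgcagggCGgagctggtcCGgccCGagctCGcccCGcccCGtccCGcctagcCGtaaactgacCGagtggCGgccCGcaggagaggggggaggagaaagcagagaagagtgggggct
The Itgbl1 and Itga10 windows hold 6 CpG each, whereas those of Itga8 and Itgb5 hold 23 and 20. Over all 32851 promoter windows the median was 7 CpG with quartiles at 3 and 20, and over the 23 integrin windows it was 12. The printed windows thus differed in CpG count. Whether CpG content had a part in the changes of their genes was not tested. A half-site of the glucocorticoid receptor, the receptor for dexamethasone, spelled AGAACA and searched on both strands, was in 19.0% of all windows and in 5 of the 23 integrin windows, none of them among the windows printed. A STAT element, spelled TTCNNNGAA on both strands and chosen because oncostatin M signals through STAT proteins, was in 8.3% of all windows and in 2 integrin windows. Among those printed it was in that of Itga10 as TTCTTTGAA, at position -189 relative to the start. A match describes the letters and shows no binding, and the 2 motifs do not overlap in these windows.

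Some arrays stood apart. HD28 replicate 3 held hepatocyte transcripts, with albumin (Alb) at 13.8 against 3.38 and 3.74 in the other HD28 arrays. Its mean over 9 hepatocyte markers was 11.78 where the lowest HD28 array had 4.35. Markers of other liver cells were raised in it as well. Their means were 5.72 against 4.53 and 4.72 in HD28 1 and 2 for Kupffer cells and macrophages, 6.24 against 5.08 and 5.17 for stellate cells and pericytes, and 4.67 against 3.71 and 3.98 for endothelium. The origin of these transcripts was not tested. In 6 arrays (dHD28 2, HD28 2, MLC 1, MLC 2, Hepatocyte 1 and MSC 1) the mean of 27 probe sets for poly-A control transcripts was 6.81 to 7.84, and in the other 9 it was 4.44 to 5.14. These are called the high and low spike-in classes. Fits with only the low class thus rest on HD28 1 and 3, dHD28 1 and 3, MSC 2 and 3, Hepatocyte 2 and 3, and MLC 3 alone. They include HD28 3, the array with hepatocyte transcripts. The mean over 10 mesenchymal stromal markers fitted the labels. It was 9.77 to 10.12 in the 12 arrays of stromal type and 4.86 to 6.16 in the Hepatocyte arrays. Among these markers collagen Col1a1 lay between 12.83 and 13.61 in the stromal type and between 3.54 and 4.91 in the Hepatocyte arrays. Thy1 did not separate them, at 3.75 to 5.91 in the stromal type and 4.23 to 4.92 in the Hepatocyte arrays. Hepatocyte arrays also held markers of other liver cells: the mean over 11 Kupffer cell and macrophage markers was 6.23 to 7.82, against 4.74 to 4.92 in MSC arrays. In such bulk samples, fewer cells of a type and less RNA per cell cannot be told apart.

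Over the 5 groups, 14 of the 29 genes differed (limma moderated F test, adjusted p under 0.05), which is 48.3% beside 46.8% of all genes tested. The integrin genes were therefore about as often variable as any gene. Itgb5 (adjusted p = 4.4e-07) and Itgbl1 (adjusted p = 1.03e-05) had the smallest p in this test. For 9 of these 14 genes the Hepatocyte group had the lowest mean. Itgam and Itgb6 had a mean below the lower quartile of the arrays (median over arrays 3.52) in every group.

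**Figure D1:**
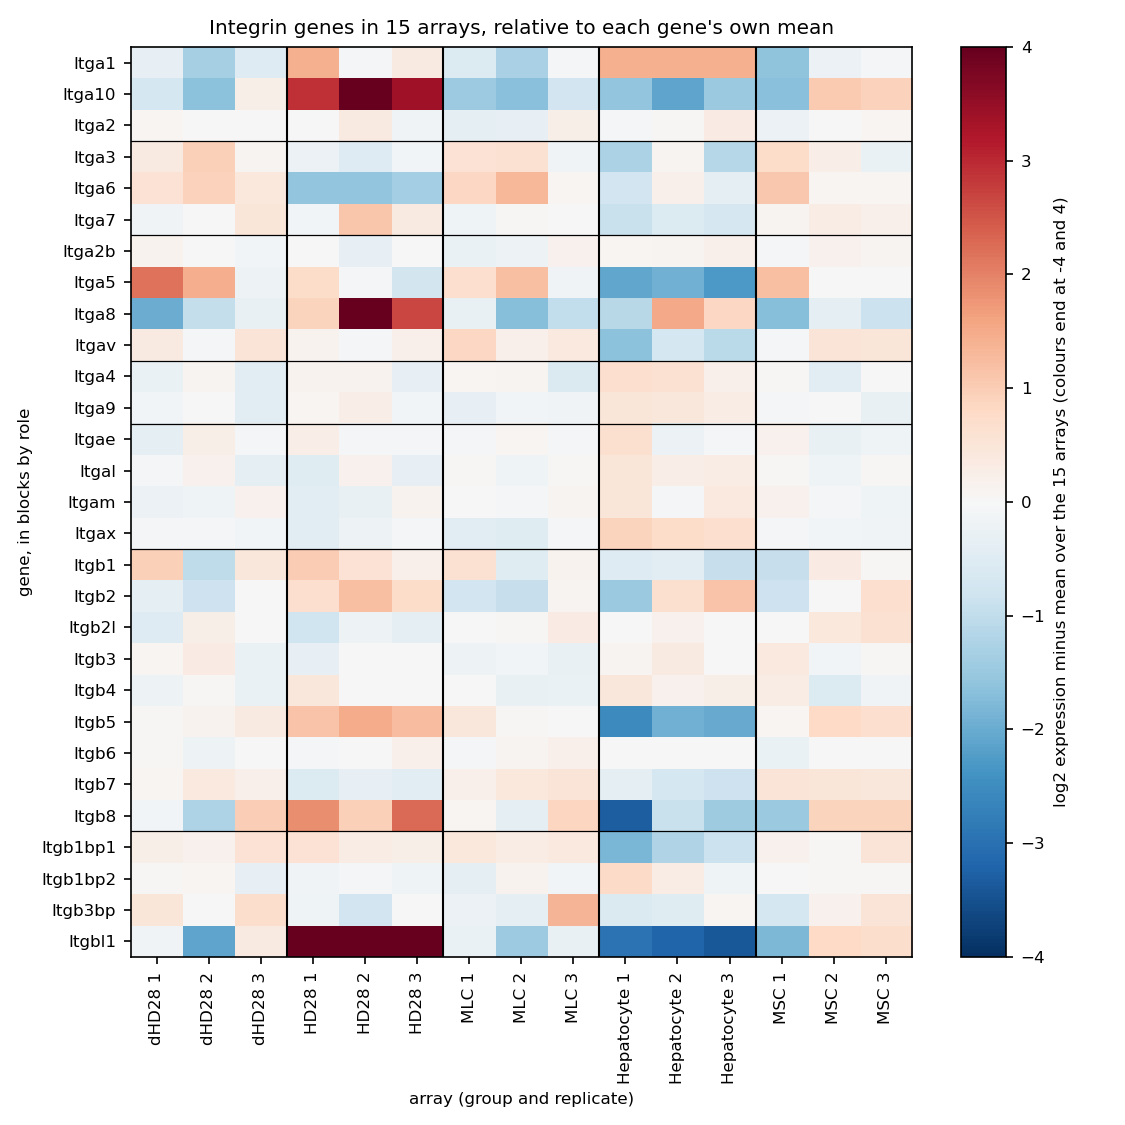
Log2 expression of the 29 integrin genes in 15 arrays (columns, replicates 1 to 3 of each group), as the difference from each gene's own mean over the 15 arrays, in blocks by role. Red blocks in the HD28 columns mark Itgbl1, Itga10 and Itga8, and blue blocks in the Hepatocyte columns mark Itgb5, Itga5, Itgav, Itgb1bp1 and Itgbl1.

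The first comparison asks what hepatocyte-directed culture did to stromal cells. In HD28 cells 3 integrin genes rose and 1 fell against MSC: the collagen receptor subunit Itga10, the nephronectin receptor subunit Itga8 and the integrin-like secreted protein Itgbl1 rose 11.3- to 25.7-fold, and the laminin receptor subunit Itga6 fell 3.77-fold. A gene counts as changed here when its limma p, adjusted over all genes, was under 0.05 and the groups differed at least 2-fold. Of all genes, 6.77% changed (3.24% rose and 3.52% fell), beside 4 of 29 integrin genes (13.8%). The other 25 genes lay between -0.92 and 1.59 on the log2 scale.

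Itgbl1, which carries repeats like those of a beta chain but no membrane anchor, had 11.9, 12.08 and 12.06 in HD28 arrays, against 5.62, 8.24 and 8.14 in MSC arrays. The HD28 arrays lay close together and all above the MSC arrays, of which the lowest was MSC 1, an array of the high spike-in class. The log2 change was 4.69 ± 0.68 (SE, n = 3 each; adjusted p = 0.00079), and 3.80 ± 0.20 with only the arrays of the low class (adjusted p = 0.00033).

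Itga10, the alpha chain of a collagen receptor best known from cartilage, had 9.16, 10.76 and 9.61 in HD28 arrays, against 4.57, 7.28 and 7.17 in MSC arrays. Its groups did not overlap, and MSC 1 was again the lowest. It rose by 3.50 ± 0.67 on the log2 scale (adjusted p = 0.0048). Fitted on the HD28 and MSC arrays alone, the same change had an adjusted p of 0.053, and with only the low class it was 2.16 ± 0.35 (adjusted p = 0.018).

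Itga8, whose product pairs with beta 1 and binds nephronectin, had 6.42, 9.88 and 8.21 in HD28 arrays, against 3.84, 5.18 and 4.69 in MSC arrays. All HD28 arrays were above all MSC arrays, but they spread over more than 3 log2 units. The change of 3.60 ± 0.83 was called (adjusted p = 0.014). It was not called without HD28 replicate 2 (2.74, adjusted p = 0.06), without MSC replicate 1 (3.23, adjusted p = 0.062) or with only the low class (2.38, adjusted p = 0.12). A second, dimmer Itga8 probe set lay between 4.28 and 7.46 in HD28 arrays and between 2.45 and 2.97 in MSC arrays.

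Itga6, the alpha chain of laminin receptors, had 3.94, 3.94 and 4.18 in HD28 arrays, against 6.6, 5.6 and 5.62 in MSC arrays. It was the 1 integrin gene that fell, with a log2 change of -1.92 ± 0.34 (adjusted p = 0.0032), and its second probe set gave -1.98. Without HD28 replicate 3 the 4 called changes were 4.66 for Itgbl1, 3.62 for Itga10, 3.58 for Itga8 and -2 for Itga6, and each was still called.

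**Figure D2:**
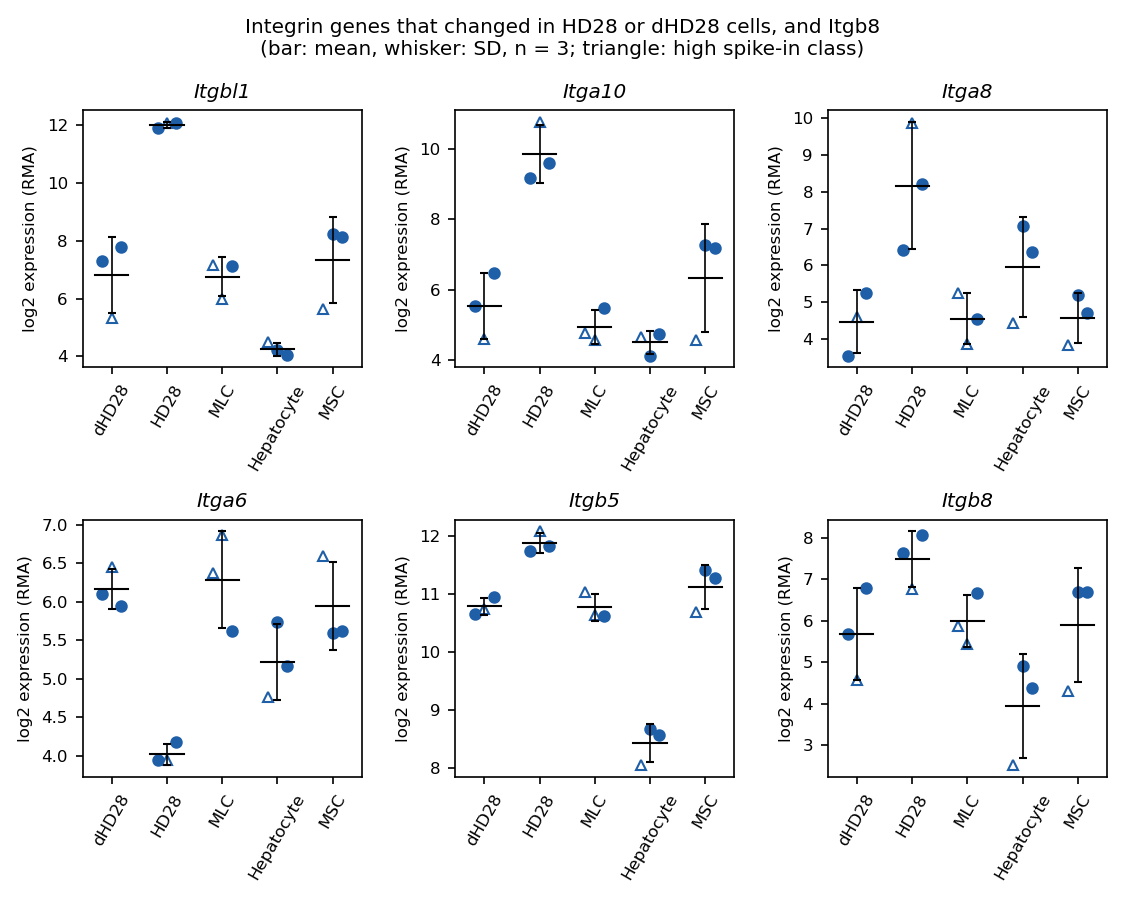
Log2 expression (RMA, vertical axes) in each array of the 5 groups for Itgbl1, Itga10, Itga8, Itga6, Itgb5 and Itgb8; bars are means and whiskers SD over 3 arrays, and open triangles are arrays of the high spike-in class. The HD28 arrays lie above 11.8 for Itgbl1 and above 9 for Itga10, apart from every other array, and at most at 4.18 for Itga6.

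No beta chain was called in HD28 against MSC. Itgb7, which pairs with alpha 4 and alpha E in lymphocytes, Itgb2l and Itgb5 passed the adjusted p but not the fold, with log2 changes of -0.92 (adjusted p = 0.0012), -0.80 (adjusted p = 0.035) and 0.76 (adjusted p = 0.038). The shared partner Itgb1 changed by 0.77 ± 0.47 (adjusted p = 0.35). Itgb8, a partner of alpha V, had 7.65, 6.76 and 8.07 in HD28 arrays, against 4.31, 6.69 and 6.69 in MSC arrays, a difference of 1.59 ± 0.76 that was not called (adjusted p = 0.23).

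Some of these genes also differed between the spike-in classes. Within groups Itgb8 was 1.66 ± 0.23 log2 units lower in arrays of the high class (adjusted p = 0.0039), the 1 integrin gene called in that contrast, while 2.18% of all genes were called lower and 0.033% higher. Itgb3bp (-0.88, adjusted p = 0.0078), Itga1 (-0.83, adjusted p = 0.022) and Itga4 (0.39, adjusted p = 0.038) passed the p limit in that contrast but not the fold. With the class as a block, Itgb8 (1.59, adjusted p = 0.0071) and the collagen receptor subunit Itga1 (1.22, adjusted p = 0.02) also rose in HD28 cells, which made 6 changes. Itga1 had 7.11, 5.65 and 6.05 in HD28 arrays, against 4.08, 5.47 and 5.61 in MSC arrays, and without the block its adjusted p was 0.12.

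The reverse step asks what happened when HD28 cells went back to stromal medium. In dHD28 cells 1 integrin gene rose and 4 fell against HD28 cells, with Itgbl1 37.2-fold, Itga10 19.8-fold, Itga8 13.1-fold and Itgb5 2.14-fold lower and Itga6 4.42-fold higher. Of all genes, 8.82% changed (4.63% rose and 4.19% fell), beside 5 of 29 integrin genes. The HD28 arrays are the same ones as in the first comparison, so opposite signs in the 2 comparisons are not independent results.

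Itgbl1 had 7.3, 5.31 and 7.79 in dHD28 arrays, against the HD28 values above, and its log2 change was -5.22 ± 0.68 (adjusted p = 0.00029). Itga10 had 5.54, 4.59 and 6.48 in dHD28 arrays and fell by 4.31 ± 0.67 (adjusted p = 0.001). Itga8 had 3.54, 4.59 and 5.24 in dHD28 arrays and fell by 3.71 ± 0.83 (adjusted p = 0.0092). In all of these, every dHD28 array lay below every HD28 array. Without HD28 replicate 3 the changes were -5.19, -4.42 and -3.69, and each was still called.

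Itga6 had 6.1, 6.45 and 5.94 in dHD28 arrays and rose by 2.14 ± 0.34 (adjusted p = 0.0012), with no overlap. Itgb5, the beta chain of the vitronectin receptor alpha V beta 5, had 10.66, 10.75 and 10.95 in dHD28 arrays, against 11.75, 12.08 and 11.83 in HD28 arrays. It fell by 1.10 ± 0.22 (adjusted p = 0.0044), and each of its 3 other probe sets fell at least 2-fold as well. With only the low class the Itgb5 change was -0.98, just under the 2-fold limit. With the class as a block, Itga1 (-1.29, adjusted p = 0.012) and Itgb8 (-1.81, adjusted p = 0.0028) also fell.

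Set directly against MSC, no integrin gene changed in dHD28 cells: 0 of 29 were called in limma, 0 of 29 had an unadjusted p under 0.05, and 0% of all genes were called (1.13% had an unadjusted p under 0.05). Differences ran from -0.80 ± 0.67 for Itga10 to 0.75 ± 0.56 for Itga5. Itgbl1 differed by -0.53 ± 0.68, Itga8 by -0.11 ± 0.83 and Itga6 by 0.23 ± 0.34, and standard errors of this size limit what 3 arrays a group could detect.

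**Figure D3:**
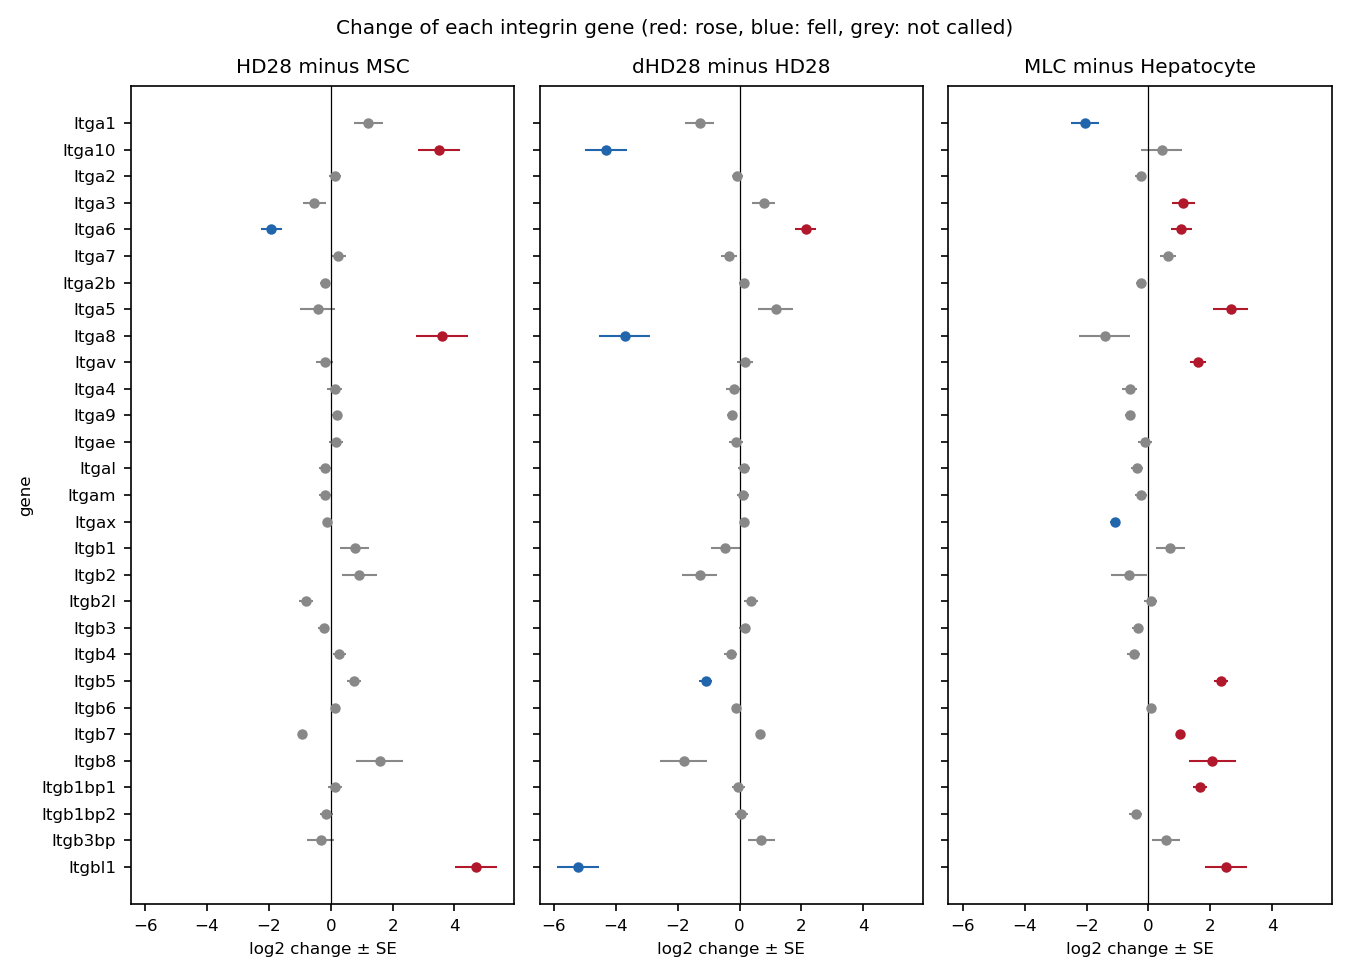
Log2 change with its standard error (horizontal axes) of each of the 29 integrin genes in HD28 minus MSC, dHD28 minus HD28 and MLC minus Hepatocyte, from the limma model of 15 arrays. Red marks genes that rose and blue those that fell by the p and fold limits of the text, with Itgbl1 at 4.69, -5.22 and 2.51.

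The hepatocyte side was compared in the same way. In MLC cells 9 integrin genes rose and 2 fell against hepatocytes, led by the fibronectin receptor subunit Itga5 (6.34-fold), Itgbl1 (5.69-fold) and Itgb5 (5.05-fold), while Itga1 fell 4.14-fold. Of all genes, 30.5% changed (18.4% rose and 12% fell), beside 11 of 29 integrin genes (37.9%). Centring the arrays on 10 housekeeping genes instead moved the median of all genes by -0.64 log2 units and turned the split to 4 risen and 8 fallen, so directions below are relative to the RMA scale. Under that centring Itga5 (2.03), Itgbl1 (1.87), Itgb5 (1.70) and Itgb1bp1 (1.02) were the 4 genes that rose.

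Itgb5 had 11.04, 10.64 and 10.63 in MLC arrays, against 8.06, 8.67 and 8.57 in Hepatocyte arrays, and rose by 2.34 ± 0.22 (adjusted p = 1.5e-06). Itgav, the alpha V chain, had 11.44, 10.82 and 11.01 in MLC arrays, against 8.97, 9.93 and 9.55 in Hepatocyte arrays, and rose by 1.61 ± 0.26 (adjusted p = 0.00017). The transcripts of both chains of alpha V beta 5 were thus higher, with no overlap of arrays. Averaging all Itgav probe sets, dim ones included, gave a change of 0.78, under the 2-fold limit. The next brightest Itgav probe set alone gave 2.04 and the third brightest 0.28.

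Itga5 had 8.18, 8.73 and 7.38 in MLC arrays, against 5.45, 5.61 and 5.23 in Hepatocyte arrays, and rose by 2.66 ± 0.56 (adjusted p = 0.0015). Its next brightest probe set lay between 5.99 and 7.03 in MLC arrays and between 5.2 and 5.55 in Hepatocyte arrays. That difference of 1.18 was not called (adjusted p = 0.1), whereas averaging all Itga5 probe sets kept the call. With only the low class, which holds MLC replicate 3 alone of the MLC arrays, the change was 1.96. This size rests on that array and does not show that the call held. Itgb1bp1, a cytoplasmic protein that binds the beta 1 tail, had 9.33, 9.21 and 9.31 in MLC arrays, against 7.11, 7.72 and 8.05 in Hepatocyte arrays, and rose by 1.66 ± 0.22 (adjusted p = 3.1e-05).

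Itgbl1 had 7.16, 5.99 and 7.13 in MLC arrays, against 4.49, 4.22 and 4.04 in Hepatocyte arrays (2.51 ± 0.68, adjusted p = 0.0081). Itgb7 had 5.85, 6.06 and 6.15 in MLC arrays, against 5.24, 4.93 and 4.82 in Hepatocyte arrays (1.02 ± 0.14, adjusted p = 5.3e-05). Itgb8 had 5.87, 5.45 and 6.67 in MLC arrays, against 2.52, 4.92 and 4.37 in Hepatocyte arrays (2.06 ± 0.76, adjusted p = 0.04). The Itgb8 difference was 1.35 without Hepatocyte replicate 1 (adjusted p = 0.18), and 2.61 ± 0.35 in the limma fit that blocked on the class (adjusted p = 4e-05). Itgb7 was just under the 2-fold limit (0.94 to 0.99) without Hepatocyte replicate 2 or 3 or MLC replicate 3, and 0.98 in the fit that blocked on the class. The laminin receptor subunits Itga3 (1.12 ± 0.37, adjusted p = 0.024) and Itga6 (1.06 ± 0.34, adjusted p = 0.021) were called although their arrays overlapped, and without Hepatocyte replicate 1 they were 0.87 (adjusted p = 0.1) and 0.83 (adjusted p = 0.093). Both calls were also lost without MLC replicate 1 or MLC replicate 2, and the Itgb8 call without MLC replicate 1, MLC replicate 3, HD28 replicate 1 or dHD28 replicate 1. With only the low class, where MLC replicate 3 stands alone, the change was 0.37 for Itga3 and 0.16 for Itga6. With the class as a block Itga6 was 0.95, just under the 2-fold limit, and Itga3 was 1.05. Without Hepatocyte replicate 3 the count was 7, because Itga3, Itga6, Itgb7 and Itgb8 were no longer called.

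Itga1 had 5.16, 4.38 and 5.63 in MLC arrays, against 7.12, 7.1 and 7.1 in Hepatocyte arrays. It fell by 2.05 ± 0.46 (adjusted p = 0.0023) and its second probe set also fell at least 2-fold. Itgax, the alpha chain of a receptor of dendritic cells and macrophages, had 3.85, 3.81 and 4.21 in MLC arrays, against 5.19, 5.01 and 4.96 in Hepatocyte arrays, and fell by 1.09 ± 0.14 (adjusted p = 2.6e-05). With only the low class the Itgax change was -0.77, again with MLC replicate 3 alone. Markers of Kupffer cells and macrophages were also lower in MLC cells. Their mean was 4.66 to 4.78 in MLC arrays and 6.23 to 7.82 in Hepatocyte arrays. Above the lower quartile were 11 of 11 in hepatocytes, but also 9 of 11 in MLC cells and 10 of 11 in MSC. Adgre1 was 3.41 to 3.59 in MLC arrays against 5.95 to 6.48 in Hepatocyte arrays. Within the Hepatocyte group the order was opposite. The marker mean was 6.23, 7.63 and 7.82 in replicates 1, 2 and 3, and Itgax was 5.19, 5.01 and 4.96. The part of such cells in the Itgax result was not tested.

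The Hepatocyte arrays differed among themselves in the same markers. The leukocyte gene Ptprc had 4.91, 7.57 and 6.88 in Hepatocyte replicates 1, 2 and 3, and the stellate cell gene Lrat had 3.39, 7.97 and 7.04. Itga8 had 4.43, 7.07 and 6.37 in those arrays, Itgb2 (the beta chain of leukocyte integrins) had 4.23, 6.35 and 6.87, and Itgb8 had 2.52, 4.92 and 4.37. Replicate 1 was the lowest in each of these genes and is the array of the high spike-in class. Within the 5 groups, high minus low class was -1.66 ± 0.23 for Itgb8, -0.92 ± 0.29 for Itgb2 and -0.12 ± 0.57 for Itga8. In the Hepatocyte arrays alone the parts of class and other liver cells cannot be told apart.

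Itgb1, the most widely shared beta chain, was not called between MLC and Hepatocyte (0.70 ± 0.47, adjusted p = 0.24), and its probe sets disagreed. The one with the highest mean lay between 9.73 and 10.84 in MLC arrays and between 9.31 and 9.78 in Hepatocyte arrays. The next brightest, with a mean of 9.92, lay between 9.58 and 10.82 in MLC arrays and between 8.28 and 8.7 in Hepatocyte arrays, a difference of 1.71. Likewise the second Itgal probe set lay between 3.14 and 3.55 in MLC arrays and 3.71 and 5.45 in Hepatocyte arrays, a difference of -1.32, where the first gave -0.37.

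**Figure D4:**
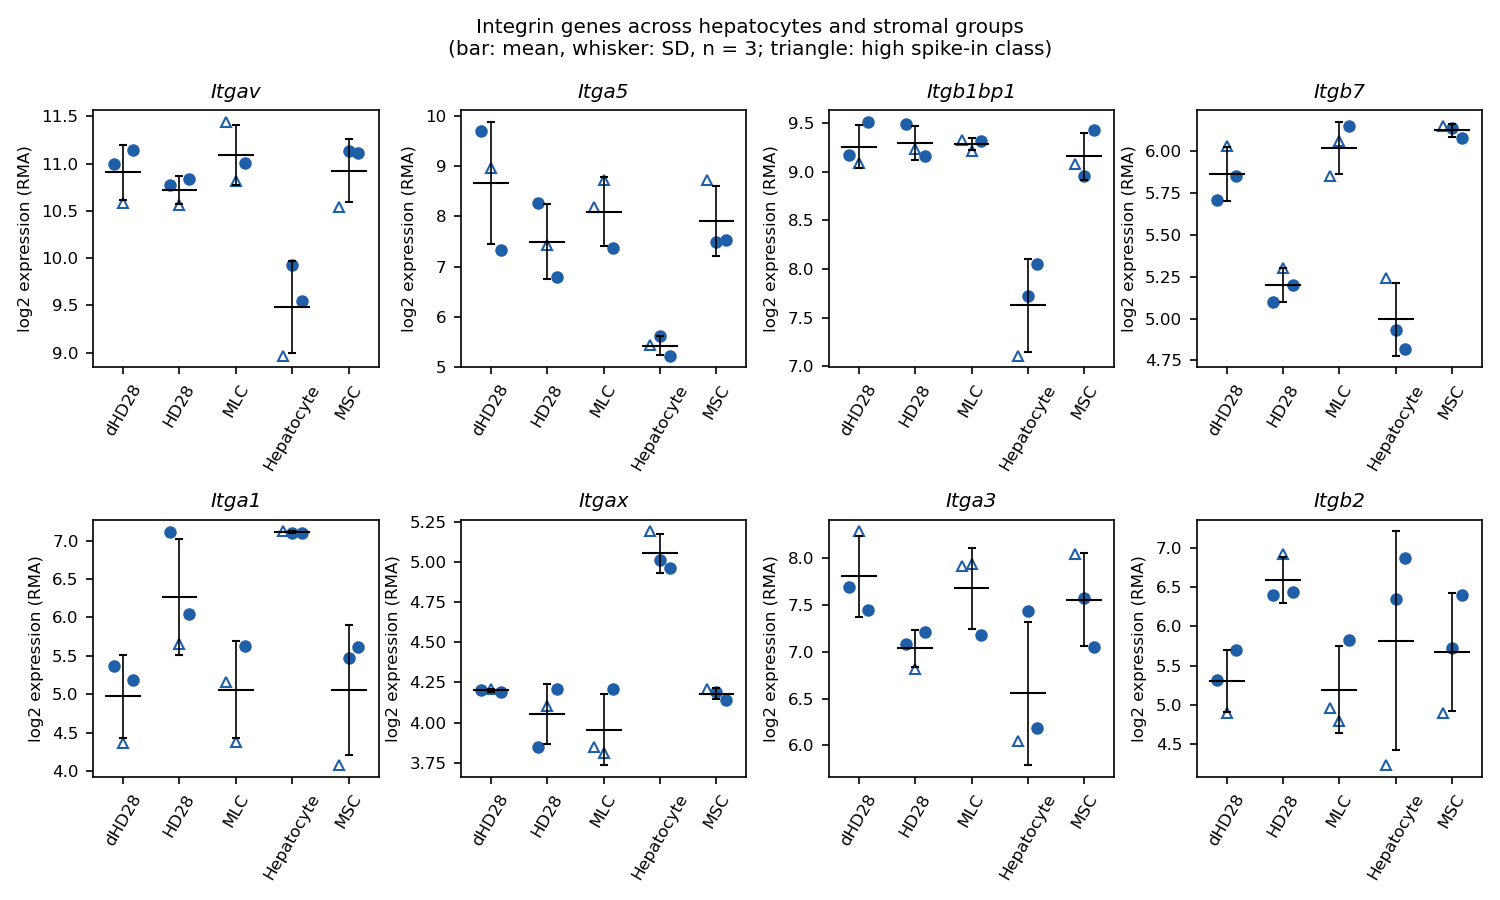
Log2 expression (RMA, vertical axes) in each array of the 5 groups for Itgav, Itga5, Itgb1bp1, Itgb7, Itga1, Itgax, Itga3 and Itgb2; bars are means and whiskers SD over 3 arrays, and open triangles are arrays of the high spike-in class. Hepatocyte arrays lie below all others for Itgav, Itga5 and Itgb1bp1, and at 4.96 or more for Itgax, above all others.

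Against MSC, MLC cells showed no called integrin gene: 0 of 29 were called in limma and 0 of 29 had an unadjusted p under 0.05, beside 0% and 0.5% of all genes. The differences ran from -1.40 ± 0.67 for Itga10 to 0.35 ± 0.34 for Itga6. The Itga10 difference went with MSC values of 4.57, 7.28 and 7.17, of which the first overlaps the MLC values of 4.78, 4.56 and 5.47.

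Hepatocytes set directly against MSC had 1 risen and 8 fallen integrin genes, beside 11.8% risen and 18.3% fallen of all genes (30.1% changed). Itga1 rose by 2.05 ± 0.46 (adjusted p = 0.0024), with Hepatocyte arrays at 7.1 to 7.12 and MSC arrays at 4.08 to 5.61. The log2 changes of those that fell were -3.08 for Itgbl1, -2.69 for Itgb5, -2.49 for Itga5, -1.83 for Itga10, -1.53 for Itgb1bp1, -1.44 for Itgav, -1.13 for Itgb7 and -1 for Itga3, with adjusted p between 4.6e-07 and 0.042. The arrays overlapped for Itga10 and Itga3. The Itga10 call was lost without any 1 Hepatocyte array (adjusted p = 0.065 to 0.11), MSC replicate 2 or 3 (adjusted p = 0.16 and 0.15), dHD28 replicate 1 or MLC replicate 1 (adjusted p = 0.051 each). The Itga3 call was lost without Hepatocyte replicate 1 or 3, MSC replicate 1 or 2, HD28 replicate 1 or 2, dHD28 replicate 1 or MLC replicate 1 (adjusted p = 0.051 to 0.17). The next brightest Itga5 probe set gave -0.84 (adjusted p = 0.25), the mean of all Itgav probe sets gave -0.57, and with only the low class Itga5 had an adjusted p of 0.064, so that these calls were lost there. The next brightest Itgav probe set alone gave -1.41 and the third brightest -0.14. On the housekeeping scale the split was 6 risen and 3 fallen, with Itgb5, Itgbl1 and Itga5 as those that fell.

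HD28 cells also differed from hepatocytes in their integrins, with 9 risen and 1 fallen gene beside 15.3% risen and 11.2% fallen of all genes (26.5% changed). Itgbl1 was 218-fold higher in HD28 cells (7.77 ± 0.68 on the log2 scale, adjusted p = 1.5e-06), Itga10 40.4-fold, Itgb8 11.7-fold and Itgb5 11-fold. Itga8 (2.21), Itga5 (2.07), Itgb1bp1 (1.67), Itgav (1.24) and the laminin receptor subunit Itga7 (1.15) also rose, and Itga6 fell by 1.20. Without HD28 replicate 3, the array with hepatocyte transcripts, Itga8 was not called (2.19, adjusted p = 0.083), whereas Itgbl1 stayed at 7.74 and Itga10 at 5.45. The Itga8 arrays overlapped, and 9 of the 15 arrays, HD28 replicates 2 and 3, Hepatocyte replicates 1 and 3, MSC replicates 2 and 3, dHD28 replicate 2 and MLC replicates 1 and 3, each ended its call when left out (adjusted p = 0.05 to 0.19). Itga6 was -0.95 without Hepatocyte replicate 2 (adjusted p = 0.053), Itgav 0.98 without Hepatocyte replicate 1 and Itga7 0.83 without HD28 replicate 2. The next brightest Itga5 probe set gave 0.71 (adjusted p = 0.32) and the mean of all Itgav probe sets 0.46 (adjusted p = 0.074), and neither was called. That mean includes the Itgav probe set used here and dim ones. The next brightest Itgav probe set alone gave 1.02 and the third brightest 0.3. The housekeeping scale gave 6 risen and 3 fallen.

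Ligands and partners of the integrins were read from lists of known genes. Among 33 measured matrix ligands (of 39 listed), 6 rose and 2 fell in HD28 cells against MSC, where 6.77% of all genes changed, with a median of 0.39 beside -0.08 for all genes. Bone sialoprotein Ibsp, an RGD protein, averaged 7.48 in HD28 and 3.36 in MSC arrays (log2 change 4.12 ± 0.63, adjusted p = 0.0011). The laminin chain Lama4 averaged 8.35 and 5.30 (3.05 ± 0.41, adjusted p = 4e-04). Thrombospondin 2 (Thbs2) fell by 3.42 ± 0.27 (adjusted p = 8e-06). Nephronectin (Npnt), the ligand of the alpha 8 integrin, fell by 2.45 ± 0.59 (adjusted p = 0.017) where Itga8 rose, and the laminin chain rose where the laminin receptor subunit Itga6 fell.

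In dHD28 against HD28 cells 1 matrix ligand rose and 5 fell, where 8.82% of all genes changed (median -0.32 beside 0.05 for all genes). The log2 changes were -4.08 for Ibsp, -2.88 for Lama4, -2.44 for the laminin chain Lama2 and 3.35 for Thbs2 (adjusted p between 8.6e-06 and 0.0033). A fit that blocked on the class called 3 risen and 7 fallen. In MLC cells against hepatocytes 18 rose and 6 fell (median 2.45 beside -0.06), where 18.4% of all genes rose and 12% fell. Those of largest size were the fibrinogen chains Fga (-10.74), Fgb (-9.58) and Fgg (-9.46) and vitronectin, Vtn (-8.79), all plasma proteins made by hepatocytes. Vitronectin, a ligand of alpha V beta 5, was thus lower in the cells in which Itgav and Itgb5 were higher.

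Of 33 measured adhesion complex genes (of 38 listed), 2 rose and 2 fell in HD28 cells against MSC, beside 6.77% of all genes changed (median -0.27; on the housekeeping scale 2 and 0). Tensin 1 (Tns1), which links beta tails to actin, rose by 2.36 ± 0.30 (adjusted p = 0.00029), and Lims2, a partner of integrin-linked kinase, rose by 2.04 ± 0.34 (adjusted p = 0.0021). The actin regulator Vasp fell (-1.14, adjusted p = 0.022), as did Parvb, another partner of the kinase (-1.07, adjusted p = 0.0072); without MSC replicate 1 neither fall was called. In dHD28 against HD28 cells 3 rose and 2 fell, beside 8.82% of all genes: Tns1 (-2.41) and Lims2 (-2.16) fell, and Parvb (1.42) and Vasp (1.28) were among those that rose.

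Between MLC cells and hepatocytes 19 of these 33 genes rose and 4 fell (median 1.52), beside 18.4% risen and 12% fallen of all genes. On the housekeeping scale the split was 15 and 6. The adaptor Tgfb1i1 rose by 4.69 ± 0.20 (adjusted p = 3.9e-09), the actin crosslinker Flna by 4.64 ± 0.46 (adjusted p = 2.6e-06) and zyxin, Zyx, by 3.18 ± 0.34 (adjusted p = 5.6e-06), while Lims2 fell by 3.20 ± 0.34 (adjusted p = 5.1e-06).

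Among 16 measured tetraspanins and lateral partners (of 17), 0 rose and 2 fell in HD28 cells against MSC, where 3.24% and 3.52% of all genes did. These were Cd151, a tetraspanin that binds laminin-binding integrins (-1.57 ± 0.34, adjusted p = 0.01), and the urokinase receptor Plaur (-2.02 ± 0.49, adjusted p = 0.018). Both calls were lost without MSC replicate 1, and 1 of them without HD28 replicate 2. In dHD28 against HD28 cells Plaur (2.35) and Cd151 (1.24) rose and Slc3a2, which binds beta tails, fell by 1.11. The split of 2 and 1 was 1 and 2 on the housekeeping scale, and 1 and 0 without HD28 replicate 1. In MLC cells against hepatocytes 7 rose and 3 fell, beside 30.5% of all genes changed, and on the housekeeping scale 6 rose and 6 fell. The largest changes were those of galectin 3 (Lgals3, 5.25), caveolin 1 (Cav1, 4.86), galectin 1 (Lgals1, 4.02) and Ceacam1 (-3.08).

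The latent TGF-β complex, which alpha V integrins act on, had 8 measured genes (of 9). In HD28 cells against MSC only Ltbp2 was called of these, averaging 3.55 in HD28 and 8.49 in MSC arrays (-4.95 ± 0.52, adjusted p = 7.6e-05), and in dHD28 against HD28 cells it rose by 3.61 ± 0.52 (adjusted p = 0.00062). Of the same genes, 6 rose and 2 fell in MLC cells against hepatocytes (median 3.79), beside 30.5% of all genes changed: Ltbp1 rose by 5.14, Tgfb2 by 4.87, Ltbp2 by 4.55 and Ltbp3 by 3.99, with adjusted p between 3.9e-09 and 3.3e-05. The MLC cells had received TGF-β1 in culture, which the hepatocytes had not, and the media of these groups differed as well. The part of TGF-β1 in these changes was not tested. In hepatocytes against MSC, a group for which no TGF-β1 is given, 1 of these genes rose and 6 fell (median -3.98), beside 30.1% of all genes changed.

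Of the 12 counter-receptors on cells, 0 changed in HD28 against MSC and in dHD28 against HD28 in limma. Of them, 0 and 2 had an unadjusted p under 0.05, beside 23.9% and 26.4% of all genes. In dHD28 against HD28 cells 1 rose when MSC replicate 1 or 2, dHD28 replicate 1 or MLC replicate 1 was left out. In MLC cells against hepatocytes 2 rose and 4 fell, beside the same 30.5% of all genes. E-cadherin (Cdh1, ligand of alpha E beta 7) fell (-5.40 ± 0.58), as did F11r, a junctional ligand of a leukocyte integrin (-3.71 ± 0.32), while Vcam1, the ligand of alpha 4 beta 1, rose by 2.81 ± 0.45 and Jam3 by 2.30 ± 0.21 (adjusted p between 7.9e-07 and 0.00015). In the comparisons of dHD28 and of MLC with MSC, 0 genes of any of the 5 lists were called in limma; of their genes, 1 (in the latent TGF-β complex list, dHD28 against MSC) had an unadjusted p under 0.05.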

How the data were processed

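Total RNA of 15 mouse samples was measured on Affymetrix arrays, 3 for each of 5 groups taken from the labels. The deposited table holds log2 expression values made by the authors with RMA, per the submitters' processing notes, which give no version. RMA equalises the distribution of values between arrays, so a shift of most genes is not seen. The log base was taken as 2 from the range of values (1.32 to 14.15). Of 45101 probe sets, 34945 carried 1 symbol in the array annotation, 932 several and 9160 none, and 64 were controls. The probe set of highest mean stood for each of 18193 genes; of the 29 integrin genes, which have 65 probe sets, 13 had 1 and 16 several. All 29 gene IDs matched RefSeq.

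A model of 5 group means (10 residual degrees of freedom) was fitted with limma 3.58.1 in R 4.3.3, with two-sided p adjusted by Benjamini-Hochberg over all genes, and was tested on simulated data. Values are given for up to 8 changed integrin genes in each direction and up to 4 changed genes of each partner list in a comparison, those of largest change; Itgb7 (MLC against Hepatocyte) and Itga7 (HD28 against Hepatocyte), next in size after those 8, are given as well, and any other gene was picked with its values known. The members and lists were chosen with earlier results of these data known.

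Replicate numbers are shared between groups. Deviations from the group means of same-numbered arrays correlated at 0.32, 0.28 and 0.12 for dHD28 and HD28. Replicates 1, 2 and 3 of these groups also share their spike-in class, so the correlations do not show that the arrays are pairs. The main fit treated the arrays as unpaired, and a fit with the replicate number as a block was an alternative. In the other 6 comparisons at least 1 of 3 correlations was at or below 0.1. Alternatives were the probe set rule, scaling, blocks, filters and leaving out arrays.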

Additional observations from a re-analysis of the deposited data

How the results depend on the processing

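Of 39 called changes of integrin genes, 18 were called under all 29 alternatives, 21 were lost under at least 1 and 0 reversed. Those lost most often were Itga3, Itga6 and Itgb8 in MLC against Hepatocyte, Itga3 and Itga10 in Hepatocyte against MSC, and Itga8 in HD28 against Hepatocyte. Leaving out 1 array at a time gave 3 to 4 changed genes for HD28 against MSC, 5 to 6 for dHD28 against HD28, 7 to 11 for MLC against Hepatocyte, 7 to 10 for Hepatocyte against MSC, 8 to 11 for HD28 against Hepatocyte, 0 to 0 for dHD28 and for MLC against MSC, and 12 to 16 in the F test.

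For HD28 against MSC the count was 2 (1 risen, 1 fallen) with only the arrays compared and 7 (4 and 3) with no fold limit, which adds Itgb5, Itgb7 and Itgb2l. For dHD28 against HD28 it was 8 (1 and 7) when the class was a block and HD28 replicate 3 was left out. The F test gave 24 genes after centring on housekeeping genes, where the dHD28 against HD28 split was 1 and 5. The share of all genes in that F test was not worked out, so the count is no result about integrin genes in particular. That centring moved the median of all genes by -0.64 log2 units in MLC against Hepatocyte. For the F test the cause was not tested. With the replicate block, which treats same-numbered arrays as pairs, dHD28 against HD28 kept 5 changed genes (1 and 4), the same genes, and HD28 against MSC kept 4. Of 1015 list counts under alternatives, 992 were within 1.5 times the value given and 23 were not.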
